A study of Xiphophorus maculatus with 32 samples.

Results

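This is an account of 100 transcripts of the skin of the platyfish Xiphophorus maculatus that were lower in light-exposed fish than in unexposed fish in both of 2 waveband experiments. They were chosen by their measured values. For each transcript with a mean of at least 2 CPM (its count scaled to a common total per library) over the libraries, log2(CPM + 1) was averaged over the 12 exposed fish of an experiment with wavebands 50 nm wide and set against the mean of its 2 controls. The same difference was taken for the 10 exposed fish of an experiment with wavebands 10 nm wide and its 2 controls. The 100 of 14297 transcripts (of 20218 in the table) whose smaller fall of the 2 was largest were kept. The falls against controls are therefore what selected the members, and are given below as a description with no test.

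The fish were mature males of the inbred line Jp 163 B, aged 10 to 11 months, and the RNA came from skin. Exposed fish were kept in the dark for 14 h before the light and for 6 h after it, and there were 2 fish per exposure. The wide wavebands were 300–350 nm at a dose of 7.3 kJ/m2, 350–400 nm at 18.6, 400–450 nm at 21.6, 450–500 nm at 21.2, 500–550 nm at 17.4 and 550–600 nm at 13.8 kJ/m2. The narrow ones divided the range from 500 to 550 nm into 5 steps of 10 nm, each at a dose close to that of the 500–550 nm band. A further pair received 35 kJ/m2 of broad fluorescent light (FL) at a colour temperature of 4100 K. The methods describe the unexposed controls in different ways, once as fish used directly after the dark phase with no handling and once as fish kept like the exposed ones but for the light. Sham-treated fish, handled with the lamp off, belonged to the study and are not analysed here. By the first of these descriptions of the controls, exposed fish were also sampled at another time of day, after the light and 6 h more of dark. Light, handling and, by that description, time of day therefore cannot be told apart in a difference from these controls. The FL controls repeat the values of the 2 controls of the 50 nm experiment and were counted once, which leaves 28 distinct libraries of 12835091 to 41221463 counts.

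Fish skin is exposed to light directly. It holds pigment cells and, in zebrafish, cells with their own light-set circadian clock, so light can reach gene expression there without passing through the eye. The deposited table gives Ensembl transcript identifiers, and a name could be paired with 1 of the 100 members. That member is WNT5A (ENSXMAT00000002625), a secreted Wnt ligand that acts mostly without beta-catenin and that steers cell polarity and migration in vertebrate tissues. The other 99 are described by identifier and values alone, and no role is given to them. Whether 2 members belong to the same gene, or share reads through a near copy, was not known from the table. Of 27 cell type markers listed for a check of the tissue, 2 had a named transcript, so the label skin could not be checked against epidermal, dermal or pigment cell genes.

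The fall of the members in the 50 nm experiment had a median of -0.88 on the log2(CPM + 1) scale and ran from -2.76 to -0.68. Its counterpart over the narrow wavebands had a median of -0.87, with a range of -6.23 to -0.68. Over all 14297 transcripts the medians were -0.02 and -0.01. The 50 nm fall was the larger one in 46 members. At the limit of the list, the last member, ENSXMAT00000005282, had a smaller fall of -0.683, and the first transcript outside it, ENSXMAT00000006370, one of -0.681. The members were mostly of low to middling abundance. Their mean level over the libraries was 2.02 to 1382 CPM with a median of 10.5 CPM, against 21.0 CPM over all transcripts. In 76 members the mean was 5 CPM or more, in 53 it was 10 CPM or more and in 6 it was 100 CPM or more. None of the 2800 member values (0 of 2800) was a count of 0, and 85 members had at least 10 counts in every library.

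**Figure D1:**
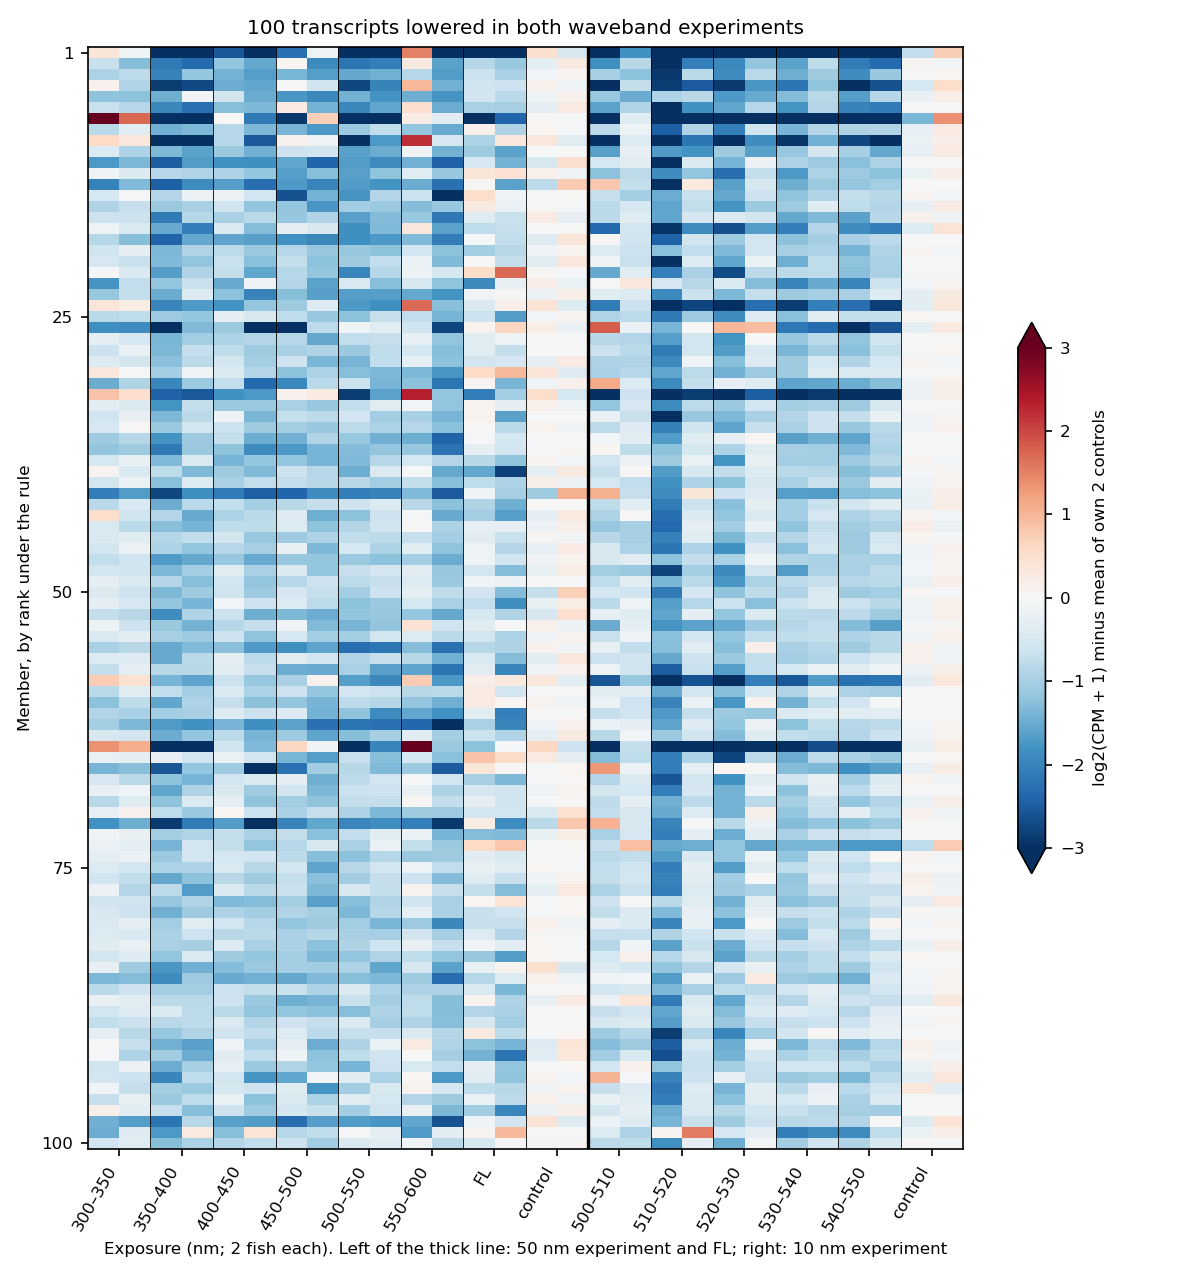
Heat map of the 100 members (down the page, by rank) in each of 28 libraries (across, 2 fish per exposure), coloured by log2(CPM + 1) minus the mean of the 2 controls of the same experiment, with blue for lower and red for higher and the scale cut at 3 either way. Most exposed columns are blue; fish 1 of 510–520 nm is the darkest, and fish 1 of 550–600 nm and the FL pair hold the most pale and red cells.

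A mean over many fish can be low because of some of them. All 12 exposed fish lay below both controls in the 50 nm experiment for 60 members, and 11.3% of all transcripts had this property. With the narrow wavebands all 10 exposed fish lay below both controls for 62 members, against 10.1% of all transcripts. Both held for 35 members, against 1.27% of all transcripts. Because the choice of members used these same differences, the counts describe them and test nothing. Of the 22 exposed fish, the number below the controls of their own experiment had a median of 21 over the members, and the lowest was 15. The controls themselves were 2-fold or more apart for 9 members in the 50 nm experiment (0.930% of all transcripts) and for 4 members in the 10 nm experiment (1.03%). Between experiments, 12 members were at least 2-fold higher and 11 at least 2-fold lower in the 10 nm controls than in the 50 nm controls, and 11.6% of all transcripts differed by as much.

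WNT5A stood at rank 44 and had 14.4 to 40.5 CPM in the 12 exposed fish of the 50 nm experiment (median 22.5), against 34.7 and 44.8 CPM in its controls. The lowest fish were the 350–400 nm pair, with 15.9 and 14.4 CPM. One fish of 550–600 nm, at 40.5 CPM, was above the lower control, so the groups overlapped. With the narrow wavebands WNT5A had 8.89 to 42.5 CPM in the exposed fish (median 23.5), against 56.1 and 42.2 CPM in the controls. There the 510–520 nm pair was split, with 8.89 CPM in fish 1 and 40.5 CPM in fish 2, and 1 fish of 520–530 nm at 42.5 CPM was level with the lower control. The means were 23.3 ± 7.15 CPM in exposed fish (SD, n = 12) and 39.7 ± 7.14 CPM in controls (SD, n = 2) for the 50 nm experiment. For the 10 nm experiment they were 25.9 ± 9.76 CPM in exposed fish (SD, n = 10) and 49.1 ± 9.87 CPM in controls (SD, n = 2). After FL the 2 fish had 33.2 and 32.2 CPM, just under the lower control of 34.7 CPM. After scaling by the trimmed mean of M values, used below, the FL mean differed from the control mean by only -0.05 in log2. The place of the FL fish under the lower control therefore depends on the scaling.

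ENSXMAT00000003893 had rank 3 and was singled out after its values were seen, as the first member whose exposed fish all lay below both controls in both experiments. It had 13.1 and 15.0 CPM after 300–350 nm, 5.83 and 11.2 CPM after 350–400 nm, 9.27 and 7.69 CPM after 400–450 nm and 9.50 and 7.72 CPM after 450–500 nm. It had 8.42 and 9.15 CPM after 500–550 nm and 14.1 and 7.62 CPM after 550–600 nm, against 24.7 and 28.1 CPM in the controls. No exposed fish came near the controls, and 300–350 nm left the most of this transcript. Its 10 fish exposed to narrow wavebands ran from 3.20 CPM (fish 1 of 510–520 nm) to 16.8 CPM (fish 2 of 520–530 nm), against 28.9 and 31.3 CPM in the controls. After FL both fish, the lower at 12.9 CPM, were again below every control.

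**Figure D2:**
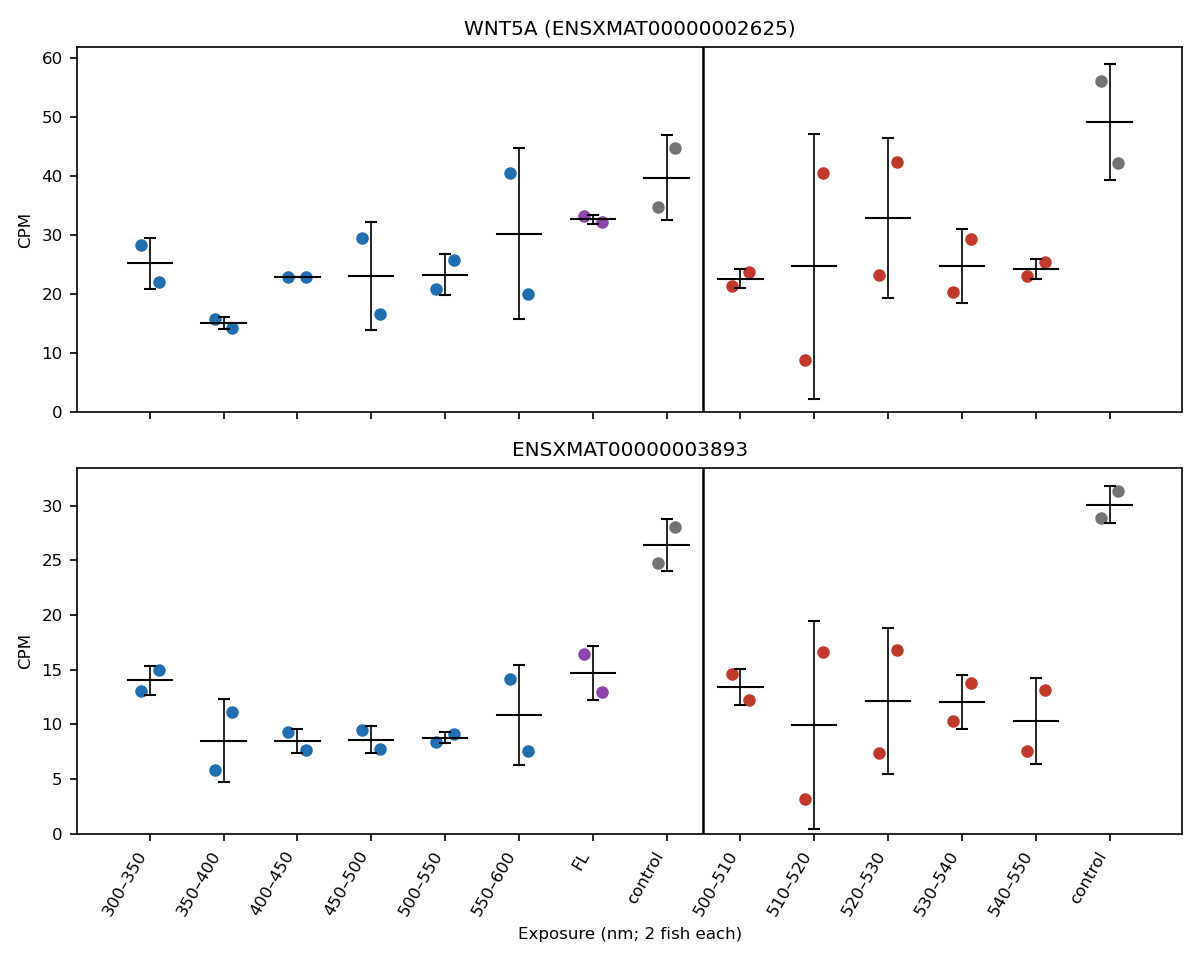
CPM of WNT5A (top) and ENSXMAT00000003893 (bottom) in each fish, by exposure in nm, with the 50 nm experiment and FL left of the vertical line and the 10 nm experiment right of it; dots are fish, black bars the mean and whiskers the SD of 2 fish. WNT5A reaches 40.5 CPM in 1 exposed fish of the 50 nm experiment, within its controls of 34.7 and 44.8 CPM, while ENSXMAT00000003893 stays at or below 16.8 CPM in every waveband fish, against 24.7 to 31.3 CPM in the 4 controls.

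The 35 members with no overlap in either experiment had differences of -1.90 to -0.68 in the 50 nm experiment (median -0.86) and of -1.41 to -0.68 in the 10 nm experiment (median -0.88). Their mean levels were 2.17 to 58.6 CPM. The 2 most abundant members overlapped with controls in at least 1 experiment. ENSXMAT00000000358, at rank 57, had 103 to 395 CPM in the exposed fish of the 50 nm experiment (median 252), against 436 and 515 CPM in the controls. With the narrow wavebands it had 29.0 to 150 CPM in exposed fish (median 112), against 145 and 188 CPM in controls, so the groups were apart in the first experiment and touched in the second. Its 10 nm controls had less of the transcript than most exposed fish of the other experiment.

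For each waveband, the members were then counted as lower where the mean of its 2 fish was at least 2-fold below the mean of the 2 controls, on log2 CPM values scaled by the trimmed mean of M values (TMM). In the 50 nm experiment the count was 18 members after 300–350 nm (1.62% of all transcripts), 71 after 350–400 nm (3.77%) and 50 after 400–450 nm (2.97%). It was 62 after 450–500 nm (3.34%), 57 after 500–550 nm (3.92%) and 46 after 550–600 nm (4.48%). The 350–400 nm pair had the largest median fall of the members, -1.26, and the 300–350 nm pair the smallest, -0.55. The 4 wavebands between 400 and 600 nm had medians of -1.01, -1.13, -1.09 and -0.97. After 300–350 nm, which had the lowest dose, 8 members were above their controls, while none of the 100 (0 of 100) was above them after 350–400, 400–450 or 500–550 nm. For the counts above controls no share over all transcripts was taken.

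By member, on the log2(CPM + 1) scale, the lowest of the 6 wide wavebands was 350–400 nm in 46 cases. It was 450–500 nm in 21 cases and 550–600 nm in 19. The 500–550 nm band was lowest in 10 cases, that of 400–450 nm in 3 and that of 300–350 nm in 1. The highest of the 6 was 300–350 nm in 69 cases. These ranks were counted for the members alone, with no share over all transcripts, so they only describe the members. The doses differed between wavebands, so this order is one of wavebands as they were given and not of wavelength at a fixed dose.

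For the narrow wavebands the count of members at least 2-fold lower was 24 after 500–510 nm (1.38% of all transcripts), 77 after 510–520 nm (5.99%) and 56 after 520–530 nm (3.77%). It was 59 after 530–540 nm (3.43%) and 50 after 540–550 nm (2.00%). The median falls of the first 4 were -0.65, -1.33, -1.05 and -1.11 in that order of wavelength. On the log2(CPM + 1) scale, the lowest of the 5 narrow wavebands was 510–520 nm for 69 members and 500–510 nm for none (0). The 500–510 nm band was the highest for 58. These ranks, too, were counted for the members alone. Over all transcripts, the share at least 2-fold lower was also largest after 510–520 nm and smallest after 500–510 nm. On the TMM scale the median of the members was -2.07 in fish 1 and -0.6 in fish 2 of 510–520 nm. The whole band of 500–550 nm, given in the other experiment at a dose of 17.4 kJ/m2, had a median of -1.09 and stood between the shallowest and the deepest of its narrow subdivisions.

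The counts after 510–520, 520–530 and 550–600 nm each rested on 1 fish more than on the other. Fish 1 of 510–520 nm was lower than fish 2 in 98 of the 100 members, while 52.8% of all transcripts were lower in that fish. In 71 members the 2 fish were 2-fold or more apart, against 17.3% of all transcripts. After 520–530 nm fish 1 was the lower one in 93 members (50.8% of all transcripts), and 56 members were 2-fold or more apart (10.5%). After 550–600 nm it was fish 2 that was lower, in 95 members (47.8% of all transcripts), with 36 members 2-fold or more apart (4.60%). Without fish 1, the count of lower members after 510–520 nm was 21, and without fish 2 it was 95. The corresponding counts after 520–530 nm were 23 without fish 1 and 85 without fish 2, and those after 550–600 nm were 78 without fish 1 and 30 without fish 2. The count after 500–510 nm was 13 without its fish 1. For these counts without 1 fish the share over all transcripts was not taken. Fish 2 of 550–600 nm was also the largest library, with 41221463 counts, against 16016452 in fish 1. The other 2 split pairs were closer in size, with 15300058 and 14415283 counts after 510–520 nm and 13364102 and 12835091 after 520–530 nm. The part of library size in these counts was not tested.

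Every exposed fish entered the choice of members, so a fish with deviant values helps to select transcripts that are low in it. In a check added after the data were seen, the rule was applied again without both fish of a pair, and that pair was read over the 100 transcripts then taken. Without the 510–520 nm pair, 85 of the 100 were also members, and fish 1 was lower in 95 of the 100, with 71 transcripts 2-fold or more apart. Without the 520–530 nm pair fish 1 was lower in 93, with 51 transcripts 2-fold or more apart. Without the 550–600 nm pair fish 2 was lower in 96, with 37 transcripts 2-fold or more apart. In these pairs the lists leaned to the same fish as the members did. Without the 500–510 nm pair the lean was weaker, with 55 lower in fish 1, against 64 of the members. It was also weaker without the 450–500 nm pair, with 59 lower in fish 2, against 65. Without the 350–400 nm pair it was stronger, with 81 lower in fish 1, against 73. The lists were largely the same transcripts, with 87 also members without the 520–530 nm pair and 94 without the 550–600 nm pair. The other split pairs still entered each choice, so the check is not independent of it. No share over all transcripts was taken for it.

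Differences of this kind, in fewer members, were seen in other pairs. The 350–400 nm pair had 73 members lower in fish 1 (47.2% of all transcripts) and the 400–450 nm pair had 76 lower in fish 2 (52.4%). The 450–500 nm pair had 65 lower in fish 2 (52.4%). In that order, 23 (3.13% of all transcripts), 14 (3.97%) and 18 (4.71%) members were 2-fold or more apart. The 530–540 nm pair had 83 members lower in fish 1 (49.9%), the 540–550 nm pair 76 (48.5%) and the 500–510 nm pair 64 (51.8%). Fish 1 was thus the lower one for most members in all 5 narrow wavebands. Members 2-fold or more apart numbered 8 after 530–540 nm (1.27%), 8 after 540–550 nm (2.11%) and 22 after 500–510 nm (1.98%). The 300–350 nm and 500–550 nm pairs were the most even, with 46 (46.5% of all transcripts) and 55 (48.4%) members lower in fish 1. They had the fewest members 2-fold apart, 5 (2.54%) and 6 (3.18%).

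A named transcript of white blood cells was read beside these differences. LCP2A, which encodes an adaptor of antigen receptor signalling in leukocytes, had 26.3 CPM in fish 1 and 55.1 CPM in fish 2 of 510–520 nm, and 33.2 and 48.9 CPM in fish 1 and fish 2 of 520–530 nm. Those fish 1 values were the lowest of the 10 nm experiment, whose exposed fish reached 57.6 CPM, against 53.4 and 64.8 CPM in the controls. In the 50 nm experiment LCP2A had 40.7 to 70.5 CPM in exposed fish (median 48.8), against 66.5 and 70.2 CPM in controls. MYL2B, a myosin light chain of skeletal muscle, had 27.9 to 117 CPM in exposed fish of the 10 nm experiment (median 57.5), against 57.5 and 93.3 CPM in controls. It had 52.8 CPM in fish 1 and 95.9 CPM in fish 2 of 510–520 nm, but 62.3 and 34.7 CPM in fish 1 and fish 2 of 520–530 nm. LCP2A thus moved with the members across these narrow pairs and MYL2B did not do so in both. In the 550–600 nm pair, where fish 2 was lower for most members, LCP2A had 47.8 CPM in fish 1 and 44.2 CPM in fish 2. MYL2B had 119 CPM in fish 1 and 50.8 CPM in fish 2 there, so it was MYL2B that moved more with the members. The other pairs were mixed. LCP2A was near level after 350–400 nm (50.1 and 52.1 CPM in fish 1 and fish 2) and 540–550 nm (46.9 and 49.3 CPM). After 400–450 nm, where fish 2 was lower for most members, LCP2A had 70.5 and 49.6 CPM. MYL2B went against the members there, with 56.0 and 112 CPM, and with them after 540–550 nm, with 42.7 and 117 CPM. After 530–540 nm both moved with the members, LCP2A with 46.4 and 57.6 CPM and MYL2B with 27.9 and 43.1 CPM. After 450–500 nm, where fish 2 was lower for most members, LCP2A went with them (48.0 and 40.7 CPM). MYL2B did not (49.7 and 56.9 CPM). After 500–510 nm LCP2A was level (53.0 and 53.1 CPM) and MYL2B went against the members (84.3 and 78.7 CPM). LCP2A is also among the housekeepers of the gene panel described below. These 2 were the marker genes with a name, and their part in the result was not tested. In bulk skin, fewer cells of a type and less RNA per cell cannot be told apart.

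**Figure D3:**
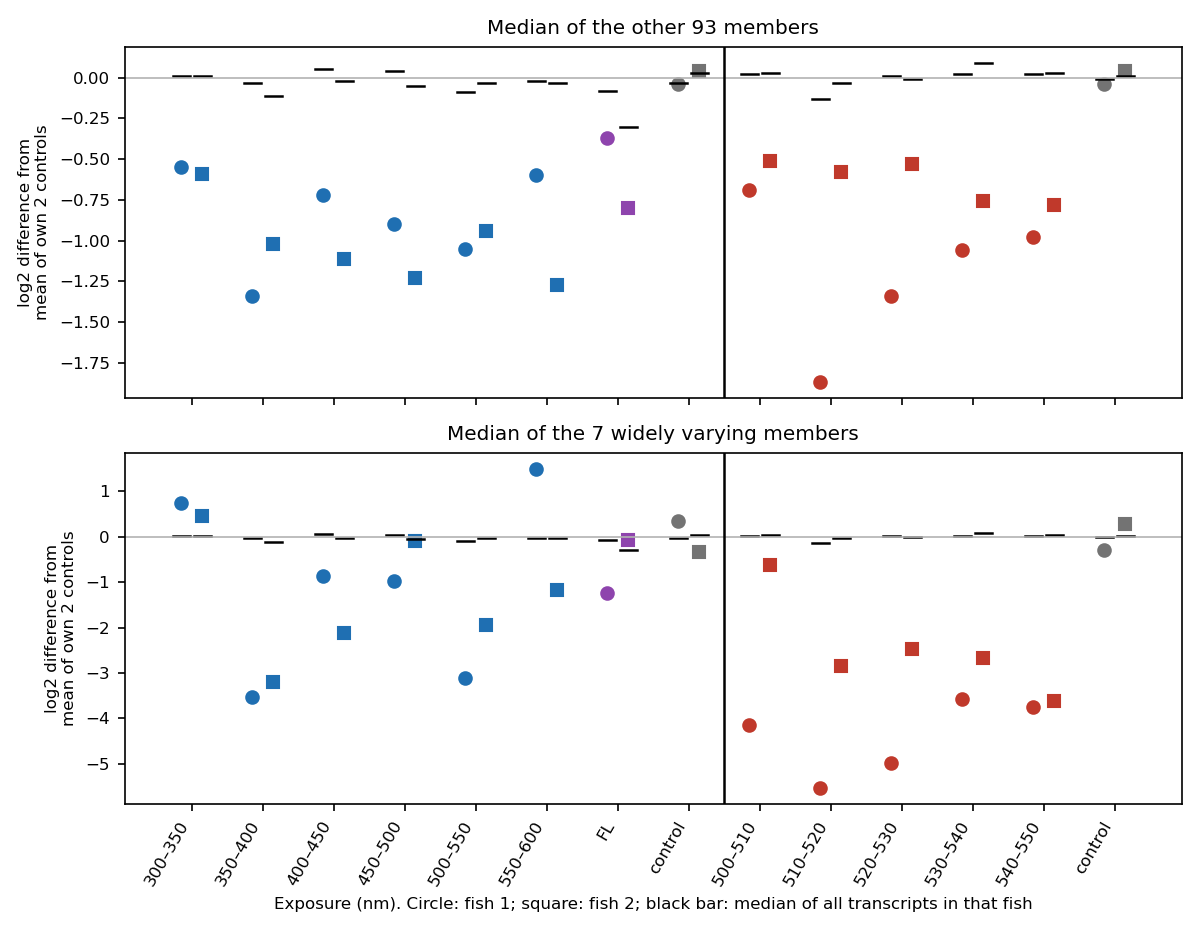
Median difference from the mean of the own 2 controls, on the log2(CPM + 1) scale, in each fish by exposure in nm, for the 93 members that varied less (top) and the 7 that varied widely (bottom); circles are fish 1, squares fish 2 and black bars the median of all 14297 transcripts. The median of the 93 is below 0 in each exposed fish, from -0.51 to -1.87 in the waveband fish, while that of the 7 ranges from 1.50 to -5.53.

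The spread among exposed fish was wider for the members than for most transcripts. The SD of log2(CPM + 1) over the 12 exposed fish of the 50 nm experiment had a median of 0.42 over the members (0.19 to 2.62), against 0.23 over all transcripts. Over the 10 exposed fish of the 10 nm experiment it had a median of 0.55 (0.30 to 2.45), against 0.25. In 7 members the SD was 1 or more in both experiments, a property of 0.336% of all transcripts. None of the 7 (0 of 7) was among the members with no overlap in both experiments. The members were chosen on these same fish and were rarer than most transcripts, so the contrast in spread is a description. It was not tested.

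ENSXMAT00000017917, at rank 1, was the most variable of them in the 50 nm experiment. It had 265 and 183 CPM after 300–350 nm, 1.79 and 2.81 CPM after 350–400 nm, 34.3 and 10.4 CPM after 400–450 nm and 42.9 and 185 CPM after 450–500 nm. It had 7.95 and 11.7 CPM after 500–550 nm and 582 and 4.39 CPM after 550–600 nm, against 285 and 147 CPM in the controls. Its mean fall thus came from the pairs of 350–400, 400–450 and 500–550 nm and from single fish, while 300–350 nm lay within the range of the controls. In the 10 nm experiment it ran from 2.54 to 145 CPM in exposed fish (median 18.8), against 307 and 859 CPM in the controls, with no overlap.

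ENSXMAT00000018048, at rank 7, had 406 and 140 CPM after 300–350 nm, against 43.6 and 39.5 CPM in the controls. It had 2.19 and 3.66 CPM after 350–400 nm and 1.21 and 3.36 CPM after 500–550 nm. The pairs of 400–450 nm (41.8 and 8.85 CPM), 450–500 nm (4.69 and 69.3 CPM) and 550–600 nm (48.8 and 32.7 CPM) each reached or passed the lower control in 1 fish. So within 1 experiment this transcript was above its controls in 1 pair and far below them in 2 others. In the 10 nm experiment it had 44.1 and 948 CPM after 500–510 nm and 0.673 to 22.9 CPM in the other 8 exposed fish, against 473 and 3165 CPM in the controls. Those controls were themselves far apart, and both held far more of it than the 50 nm controls.

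The other 5 were ENSXMAT00000006292, ENSXMAT00000006293, ENSXMAT00000006296, ENSXMAT00000000764 and ENSXMAT00000004771. Across the 22 exposed fish, with each experiment centred on its own exposed mean, 6 of the 7 rose and fell together. Their pairwise Pearson r was 0.72 to 0.97, while ENSXMAT00000004771 had r of -0.03 to 0.08 with each of them. These are descriptions over 22 libraries that share exposures, and the value is highest for ENSXMAT00000006292 with ENSXMAT00000006293. The median of the 7 was -3.53 and -3.19 in the 350–400 nm pair and -3.10 and -1.94 in the 500–550 nm pair. It was 0.75 and 0.46 in the 300–350 nm pair, and 1.50 in fish 1 and -1.17 in fish 2 of 550–600 nm. Over the narrow wavebands it was lowest in fish 1 of 510–520 nm, at -5.53, and highest in fish 2 of 500–510 nm, at -0.62.

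The remaining 93 members varied together more mildly. Among their 4278 pairs the median r over the 22 exposed fish was 0.53, and 96.3% of pairs had an r above 0. Over all pairs of the 14297 transcripts the median r was 0.04 and 54.2% were above 0. The members were chosen on these same fish, so the contrast is a description. Their median difference from controls was -0.51 to -1.87 in every exposed waveband fish. ENSXMAT00000013674 (rank 2) and ENSXMAT00000014361 were an especially close pair, with an r of 0.97, and were picked out after the values were seen. ENSXMAT00000013674 was a rare transcript, with 0.327 to 6.93 CPM in the exposed fish of the 50 nm experiment (median 1.22), against 4.49 and 6.88 CPM in the controls. In the 10 nm experiment it had 0.588 to 8.47 CPM in exposed fish (median 3.38), against 16.1 and 14.3 CPM in the controls.

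**Figure D4:**
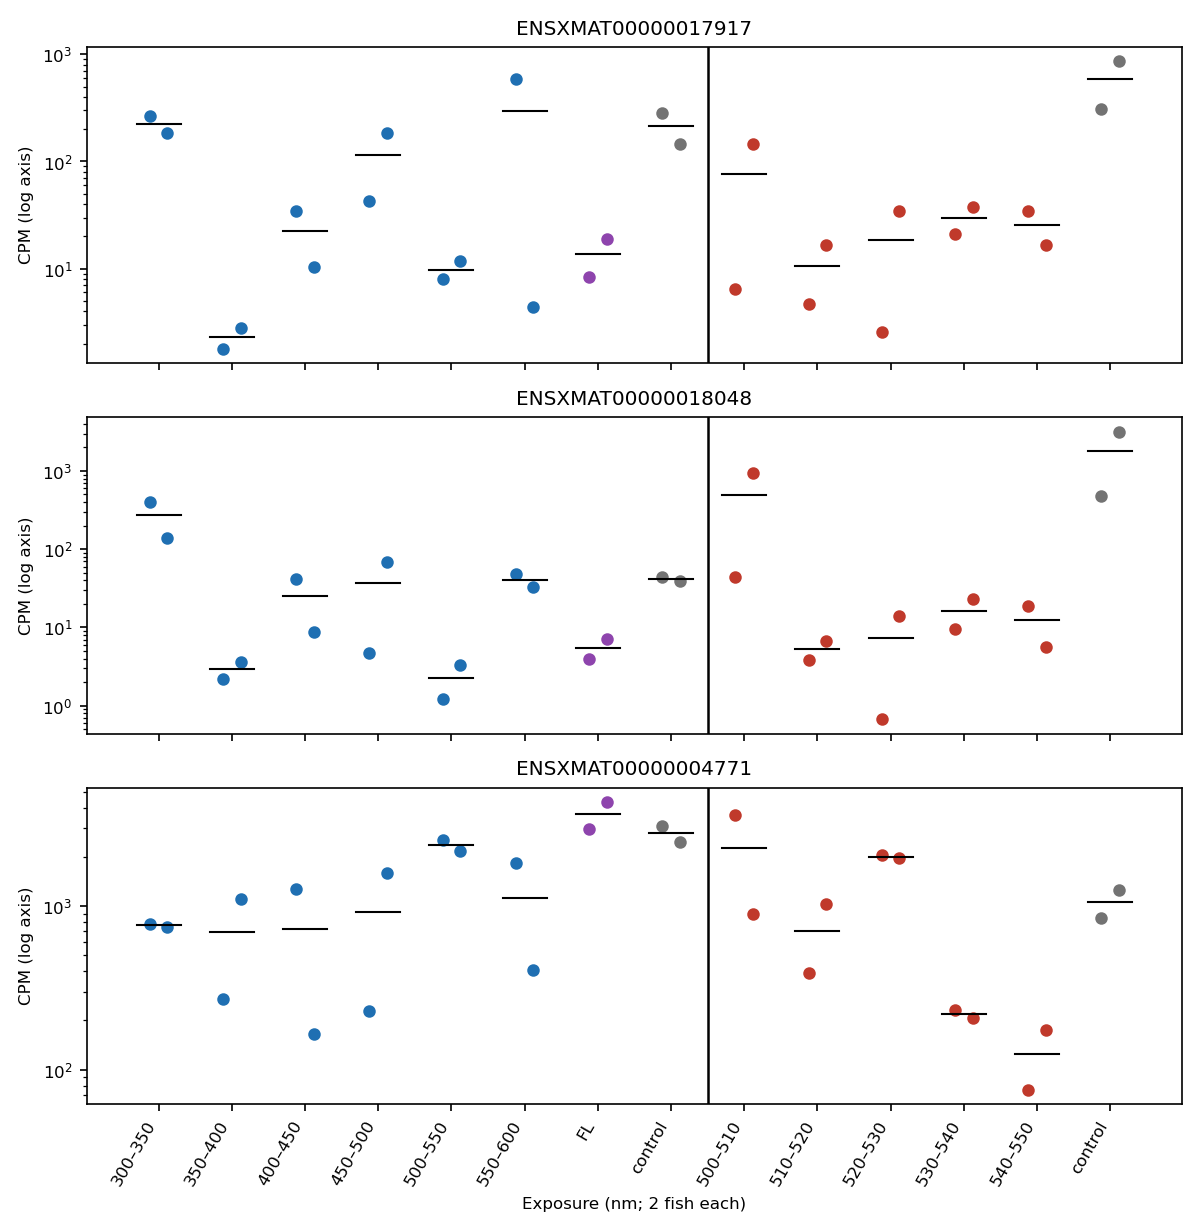
CPM on a log axis of 3 widely varying members in each fish, by exposure in nm, with the 50 nm experiment and FL left of the vertical line and the 10 nm experiment right of it; dots are fish and black bars the mean of 2 fish. ENSXMAT00000017917 and ENSXMAT00000018048 are low after 350–400 and 500–550 nm, while ENSXMAT00000004771 is at 2529 and 2167 CPM after 500–550 nm and low after 530–540 and 540–550 nm.

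ENSXMAT00000004771 was the most abundant member and followed an order of its own. In the 50 nm experiment it had 166 to 2529 CPM in exposed fish (median 943), against 3108 and 2454 CPM in the controls, and the 500–550 nm pair (2529 and 2167 CPM) was the nearest to them. In the 10 nm experiment it had 3611 and 898 CPM after 500–510 nm, 390 and 1024 CPM after 510–520 nm and 2059 and 1957 CPM after 520–530 nm. It then had 232 and 207 CPM after 530–540 nm and 75.6 and 174 CPM after 540–550 nm, against 844 and 1263 CPM in the controls. The 520–530 nm pair was above both controls and the pairs from 530 to 550 nm were far below both.

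Differences among wavebands were tested apart from the controls, because the choice of members had used each exposed fish against controls. The same exposed fish had entered that choice, so the test is not independent of it. Counts of members are therefore set beside the share over all transcripts as a description. An edgeR quasi-likelihood F-test over all transcripts, with the exposed fish alone and Benjamini-Hochberg adjustment, asked whether a transcript differed between any wavebands of an experiment. Among the 6 wide wavebands it called 1 member of 100 at an adjusted p under 0.05, when 532 of 16607 transcripts (3.20%) were called. A count of 1 member is too small to place the members below or above that background. At an unadjusted p under 0.05 there were 24 members, against 17.3% of all transcripts. The member called was ENSXMAT00000018048 (edgeR adjusted p = 0.0456, 2 fish per waveband), whose 300–350 nm pair was the highest and whose 500–550 nm pair was the lowest. The next was ENSXMAT00000006292 (edgeR adjusted p = 0.0526), which missed the threshold. It passed with no filter on low counts (edgeR adjusted p = 0.0379) and with the controls in the fit (edgeR adjusted p = 0.0282). It also passed with a DESeq2 likelihood ratio test (adjusted p = 6.25e-05), but not with the replicate number as a block (edgeR adjusted p = 0.0742). It had 45.5 and 37.6 CPM after 300–350 nm, 0.897 and 1.83 CPM after 350–400 nm and 140 and 20.6 CPM after 550–600 nm, against 37.7 and 23.5 CPM in the controls. The call of ENSXMAT00000018048 was lost in 11 of 17 alternatives, among them the fit with the replicate number as a block (edgeR adjusted p = 0.0708) and those without either fish of 300–350 nm. With that block 0 members were called (3.59% of all transcripts), and 0 without either fish of 300–350 nm, either fish of 400–450 nm or fish 2 of 500–550 nm. The count was 4 with the controls in the fit (4.35% of all transcripts) and 3 with no filter on low counts (2.60%), near those backgrounds. It was 19 with a DESeq2 likelihood ratio test, which called 10.6% of all transcripts. Without fish 2 of 550–600 nm it was 8 (1.94%) and without fish 1 it was 6 (1.65%).

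Among the 5 narrow wavebands the same test called 0 members of 100 and 0 of 16244 transcripts (0%). At an unadjusted p under 0.05 there were 9 members, against 6.03% of all transcripts. The 2 members with the smallest p were ENSXMAT00000004771 (edgeR adjusted p = 0.528) and ENSXMAT00000005055 (edgeR adjusted p = 0.548). A DESeq2 likelihood ratio test called 7 members and 1.77% of all transcripts. These 2 were among the 7, with DESeq2 adjusted p of 6.99e-09 for ENSXMAT00000004771 and 6.44e-07 for ENSXMAT00000005055. Their call thus depended on the tool. ENSXMAT00000005055 had 163 and 447 CPM after 510–520 nm and 35.7 and 40.7 CPM after 530–540 nm, against 134 and 175 CPM in the controls. It had rank 99, and like ENSXMAT00000004771 it was low after 530–540 and 540–550 nm. WNT5A had an edgeR adjusted p of 0.495 among the wide wavebands and of 1 among the narrow ones. With 2 fish per waveband, an order of wavebands for most single members was not resolved by this test.

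The FL pair was not used to choose the members, but its controls were, so its differences are also given with no test. The members had a median of -0.44 on the TMM-scaled log2 scale after FL, and 20 members were at least 2-fold lower (4.88% of all transcripts). Both FL fish were below both controls for 49 members, against 26.3% of all transcripts. In 21 members FL was above the controls, and in 3 of them by 2-fold or more. No share over all transcripts was taken for these counts above the controls. The median of the members was smaller in size than after any waveband, and nearest to that of 300–350 nm. The waveband fish had entered the choice of members and the FL fish had not, so these medians are not on an equal footing. Whether FL lowered these transcripts less was not tested. Fish 2 of FL had a median of all transcripts of -0.30 on the CPM scale, and the counts without fish 1 and with all libraries scaled by their totals were 31 and 26. Beside these 2 counts, too, the share over all transcripts was not taken. ENSXMAT00000004771 had 2971 and 4322 CPM after FL, against 3108 and 2454 CPM in the controls, a difference of TMM-scaled log2 means of 0.60. ENSXMAT00000005055 had 191 and 354 CPM after FL, against 184 and 177 CPM in the controls. ENSXMAT00000017917 had 8.34 and 19.0 CPM, far below its controls of 285 and 147 CPM. LCP2A had 78.8 and 72.0 CPM after FL, above its controls.

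The study had assembled a larger gene panel for a separate assay, and the 63 transcripts of it that could be paired here with a name gave the named surroundings of the members. Of these, 50 were abundant enough, 19 were lower in both experiments and 13 higher in both, against 3943 lower and 3464 higher in both of all 14297 transcripts. The study chose the panel, so it is no independent sample of the transcriptome. WNT5A was the 1 panel transcript among the 100 members.

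Of 4 circadian clock transcripts, 2 were lower in both experiments and 1 higher in both, and none (0) was a member. NR1D4, a nuclear receptor that represses clock genes, had differences of -0.38 in the 50 nm and -0.57 in the 10 nm experiment. BHLHE40, another clock repressor, had -0.71 and -0.13. In these clock transcripts light and time of day may not be separable, as stated above for the controls. Of 6 cell cycle and DNA replication transcripts 3 were lower in both and 0 higher in both. PIF1, a DNA helicase, had -1.23 and -0.55 and stood at rank 213. CCNF, which encodes cyclin F, had -0.96 and -0.43 at rank 442.

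Of 7 transcripts of phospholipase, calcium and protein kinase C signalling, 3 were lower in both experiments and 1 higher. PRKCB had differences of -0.30 and -1.20 and PRKCA of -0.27 and -0.73, both of them protein kinase C enzymes, which act downstream of some Wnt5a signals. Of 7 stress and DNA damage transcripts 1 was lower in both and 3 higher, and the lowest of them under the rule were PRKDC (-0.13 and -0.49) and HSP90AA1 (0.30 and -0.56). Of 4 metabolic transcripts 1 was lower in both and 2 higher, with MAP2K1 (-0.03 and -1.63) and PKFB1 (0.65 and -0.48) the lowest. Of 9 panel housekeepers 3 were lower in both and 1 higher, with LCP2A (-0.43 and -0.35) the lowest at rank 682 and SI DKEY-1C7.1 (-0.14 and -0.64) next. These are description, since the same differences chose the members. Among the wide wavebands, 2 panel transcripts were called by the edgeR test, neither of them a member, and the lower adjusted p was that of CDKN1A, an inhibitor of cell division (adjusted p = 0.0412).

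Membership of the list depended on single libraries to a degree. Without 1 of the 4 controls 72 to 78 of the 100 members were taken again, and without 1 exposed fish 85 to 97. Without both fish of 510–520 nm and of 550–600 nm, 84 were taken again. A pseudocount of 5 CPM in place of 1, which gives rare transcripts less weight, kept 64.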

How the data were processed

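Skin RNA of 28 distinct libraries was sequenced as paired reads. Per the paper's methods and the submitters' processing notes, reads were trimmed with custom scripts, aligned to Ensembl transcripts with GSNAP (version not given in the sources used here) and counted per transcript with xEpress; how reads with several matches were counted is not given. The authors deposited raw counts in 1 table with 32 columns, 4 of which repeat other columns. CPM were computed from column totals, with no filter beyond the rule. The 12 and 10 exposed libraries were fitted with edgeR 4.0.16 (R 4.3.3, with filterByExpr, TMM, glmQLFit and glmQLFTest), and DESeq2 1.42.0 was an alternative. The edgeR test was also run on simulated counts, and its outcome there is not given here. The 2-fold counts and the medians per waveband used TMM-scaled log2 CPM with a prior count of 2. The lowest and highest waveband per member and the medians per fish of the 93 and the 7 members used log2(CPM + 1).

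Named transcripts were all members with a name and, of the others, the 2 with the largest smaller fall, the last inside and the first outside the list, the 2 most abundant, the 2 with the smallest p in each test, and 2 per panel list; transcripts added after their values were seen are marked as such. The members and lists were chosen with earlier results of these data known. The libraries of a group came from different fish; whether these shared a tank or litter is not given in the sources used here. No sequences are printed, as the reference tables used here pair none with these identifiers. Alternatives were other scalings, filters, prior counts and pseudocounts, another tool, the replicate number as a block, the controls in the fit and each library left out.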

Additional observations from a re-analysis of the deposited data

Results flagged for a closer look

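ENSXMAT00000018048 differed among the 6 wavebands of the 50 nm experiment, with an adjusted p of 0.0456 in edgeR's quasi-likelihood test (2 fish per waveband). It was the 1 member of 100 to pass. Both 300–350 nm fish, with 406 and 140 CPM, were above both controls, with 43.6 and 39.5 CPM, while both 500–550 nm fish, with 1.21 and 3.36 CPM, were below them. Over 17 alternatives the adjusted p was 1.41e-05 to 0.209, and 11 of them lost the call.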

How the results depend on the processing

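Among the 50 nm wavebands the 1 member called became 3 with no filter on low counts, 19 with DESeq2 and 4 with the controls in the fit, while the share of all transcripts called became 2.60%, 10.6% and 4.35%, against 3.20%. It was 0 to 8 without 1 fish. Among the 10 nm wavebands the 0 members called became 7 with DESeq2 (1.77% of all transcripts), and stayed at 0 to 0 without 1 fish. The fish are different animals, and no label given says that a replicate number marks a shared batch. Differences between fish 1 and fish 2 correlated between wavebands at -0.264 to 0.331 over 15 pairs in the 50 nm experiment (8 over 0.1) and at 0.035 to 0.627 over 10 pairs in the 10 nm experiment (8 over 0.1, mean 0.26). As not every pair was over 0.1, the numbers were not taken to pair the fish, though fish 1 was lower for most members in all 5 narrow wavebands. With the replicate block, 0 members were called in each experiment. Among the narrow wavebands, edgeR with the block gave 19 members and 1436 transcripts in all an unadjusted p under 0.05. Without the block these numbers were 9 and 980. Among the wide wavebands they were 28 and 3173 with the block, and 24 and 2875 without it. The fits without a block may therefore miss differences among the narrow wavebands.

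The 100 members became 64 with a pseudocount of 5 CPM, and 72 to 97 without 1 library. Without 1 library, the members at least 2-fold lower numbered 16 to 20 after 300–350 nm, 49 to 81 after 350–400 nm, 36 to 68 after 400–450 nm, 52 to 64 after 450–500 nm, 53 to 60 after 500–550 nm and 30 to 78 after 550–600 nm. They numbered 13 to 32 after 500–510 nm, 21 to 95 after 510–520 nm, 23 to 85 after 520–530 nm, 43 to 71 after 530–540 nm, 39 to 66 after 540–550 nm and 14 to 31 after FL. With the controls of the 10 nm experiment the FL count was 25. In these alternatives the share of all transcripts at least 2-fold lower was not taken, so the counts describe the members alone. The alternatives for single wavebands were added after seeing the data. The cause of these changes was not tested. Each exposure had 2 fish and each experiment 2 controls.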
